A study of Mus musculus with 5 samples.

Results

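The genes of the translation initiation and elongation factors were examined in a list of H3K27ac peaks from mouse blood stem and progenitor cells. They were taken by name: protein-coding genes on autosomes whose symbol begins with Eif1, Eif2, Eif3, Eif4, Eif5, Eif6, Eef1 or Eef2 in the RefSeq gene table of GRCm38.p6. This gave 68 genes of the 20665 autosomal protein-coding genes in the table. H3K27ac (histone H3 acetylated at lysine 27), which marks enhancers and promoters in use, was assayed by ChIPmentation, in which the Tn5 transposase adds sequencing adapters to the precipitated chromatin. The cells came from bone marrow, were sorted for CD45.2, Sca1 and Kit and against lineage markers, and are named HSC/MPP in the labels, for haematopoietic stem cells and multipotent progenitors. All 4 H3K27ac libraries and the 1 input library were of the genotype Mll3/4 deleted. The age and strain of the mice and the way the genes were deleted are not given in the sources used here, and no library of another genotype was analysed here.

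Translation begins when initiation factors bring the small ribosomal subunit, the initiator tRNA and the mRNA together, and elongation factors then move the ribosome along the message. Of the initiation factors, eIF2 carries the initiator tRNA, eIF3 is the large scaffold on the small subunit, and the eIF4 proteins bind the cap and unwind the leader of the mRNA. The elongation factor eEF1A delivers aminoacyl-tRNA and eEF2 moves the ribosome on. Most of these genes are used in every cell, while a few relatives are used in particular tissues, and blood stem cells are known for a low and tightly held rate of protein synthesis.

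The data were 1 list of 22948 peaks for the 4 H3K27ac libraries together over input. Each peak has the authors' signal value, which in this format is usually the fold enrichment of the H3K27ac pileup over its background and has no unit, and the authors' −log10 q-value. The list holds no value of a single library. There was therefore no replicate error and no test, the depth of the libraries is unknown, and every comparison in the text is a description of this list. Signal values ranged from 1.44 to 34.05 with a median of 3.27, and 21.2% of the peaks had a q-value above 0.05. Of 11 genes fixed as markers of stem and progenitor cells, 7 had a peak at an end, against 37.4% of all autosomal protein-coding genes. The other markers, Ly6a (the gene of Sca1), Cd34, Mecom and Hlf, had none.

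The starts of some of these genes are shown first, because the results turn on which starts carried a peak. They are RefSeq sequences of GRCm38.p6, from 120 bases before the annotated start to the base 29 after the start base (150 bases, read 5′ to 3′ on the strand of the gene). Capitals mark matches, on either strand, to the short motifs that were searched for and are spelled out further on. Eif4a3, Eif1 and Eif4a1 had the highest signal values of all members, and Eef1a1 and Eef2 encode the central elongation factors:
Eif4a3 (chr11:119300014-119300163, minus strand): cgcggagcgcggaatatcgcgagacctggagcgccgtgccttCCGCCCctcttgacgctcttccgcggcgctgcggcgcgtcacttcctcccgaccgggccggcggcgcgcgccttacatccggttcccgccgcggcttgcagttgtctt
Eif1 (chr11:100319829-100319978, plus strand): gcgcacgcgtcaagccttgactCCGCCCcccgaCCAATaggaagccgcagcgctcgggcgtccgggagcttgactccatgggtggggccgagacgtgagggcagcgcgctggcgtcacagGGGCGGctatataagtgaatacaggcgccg
Eif4a1 (chr11:69672394-69672543, minus strand): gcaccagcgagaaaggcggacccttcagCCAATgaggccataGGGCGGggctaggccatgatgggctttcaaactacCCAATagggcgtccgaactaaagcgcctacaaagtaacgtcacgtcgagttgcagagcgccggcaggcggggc
Eef1a1 (chr9:78481695-78481844, minus strand): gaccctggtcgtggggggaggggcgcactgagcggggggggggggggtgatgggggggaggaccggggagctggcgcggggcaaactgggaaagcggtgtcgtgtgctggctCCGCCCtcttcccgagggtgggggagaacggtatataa
Eef2 (chr10:81176511-81176660, plus strand): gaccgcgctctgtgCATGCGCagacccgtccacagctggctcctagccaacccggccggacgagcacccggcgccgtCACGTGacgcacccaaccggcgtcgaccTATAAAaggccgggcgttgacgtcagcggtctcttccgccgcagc

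The next starts belong to members with no peak at either end. Eef1a2 and Eif5a2 are the relatives of Eef1a1 and Eif5a that are used in fewer tissues, and Eif3c and Eif3l encode subunits of eIF3:
Eef1a2 (chr2:181156986-181157135, minus strand): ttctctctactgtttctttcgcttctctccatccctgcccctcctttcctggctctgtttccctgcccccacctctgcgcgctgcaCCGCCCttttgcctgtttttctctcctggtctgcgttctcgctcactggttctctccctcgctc
Eif5a2 (chr3:28781157-28781306, plus strand): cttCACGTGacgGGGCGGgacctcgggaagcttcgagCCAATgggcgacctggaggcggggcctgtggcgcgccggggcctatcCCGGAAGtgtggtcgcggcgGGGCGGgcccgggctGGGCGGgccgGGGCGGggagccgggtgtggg
Eif3c (chr7:126566337-126566486, minus strand): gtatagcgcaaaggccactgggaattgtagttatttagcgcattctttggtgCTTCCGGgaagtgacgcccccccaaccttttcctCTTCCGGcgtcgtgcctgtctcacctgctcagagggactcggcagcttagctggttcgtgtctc
Eif3l (chr15:79075103-79075252, plus strand): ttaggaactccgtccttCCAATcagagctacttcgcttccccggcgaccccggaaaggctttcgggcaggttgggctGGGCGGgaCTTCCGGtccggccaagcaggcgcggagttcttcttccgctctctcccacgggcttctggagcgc

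The last pair is shown for single features. Eif2b4 has an ETS motif at its annotated start, and Eif3f was the only member whose annotated transcript begins with a C within a run of at least 5 C or T letters:
Eif2b4 (chr5:31193110-31193259, minus strand): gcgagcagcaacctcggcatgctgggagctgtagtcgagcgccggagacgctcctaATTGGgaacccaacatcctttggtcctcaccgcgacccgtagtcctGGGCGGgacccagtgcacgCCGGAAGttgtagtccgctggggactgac
Eif3f (chr7:108934295-108934444, plus strand): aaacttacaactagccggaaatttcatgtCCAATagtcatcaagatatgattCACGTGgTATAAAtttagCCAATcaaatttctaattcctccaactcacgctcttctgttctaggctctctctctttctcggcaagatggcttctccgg

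H3K27ac peaks were found at most translation factor genes. A gene was counted when one of its ends had a peak, or part of a peak, within 1 kb in either direction. By this rule 54 of the 68 genes had a peak, or 79.4% (95% Wilson interval 68.4% to 87.3%, counting error over genes only), against 37.4% of all autosomal protein-coding genes. The other 14 genes had none. The peaks at these genes were also of higher signal than those at genes in general. The median signal value of the strongest peak per gene was 6.40 (interquartile range 4.41 to 7.47) for the 54 genes and 4.74 (3.52 to 6.58) for all 7733 autosomal genes with a peak. Of the 54, 37 (68.5%) lay above that median of 4.74 and 8 (14.8%) lay above 8.97, the value that sets off the highest 10% of all genes with a peak. Width did not follow the same pattern. The strongest peak had a median width of 1122 bp (802.75 to 1542 bp) in the translation factor genes and 1120 bp (692 to 1798 bp) in all genes with a peak, and 27 of the 54 were wider than the latter median. With peaks joined across gaps of up to 1 kb, the medians were 1325.5 bp and 1470 bp.

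The counts were also set beside other gene groups of protein synthesis and turnover. Of 86 cytosolic ribosomal protein genes, 76 (88.4%) had a peak, with a median signal value of 6.09. These were taken by symbol and include relatives such as Rpl3l and Rpl10l. Of 39 proteasome subunit genes, 33 (84.6%) had one, with a median of 4.86. The Wilson intervals of these shares were 79.9% to 93.6% and 70.3% to 92.8%. They hold counting error over genes only, and their overlap with that of the translation factor genes is not a test of a difference. Within the translation factor genes, 50 encode factors and 18 encode kinases, methyltransferases, binding proteins and other regulators that share the prefix. A peak was found at 40 of the factor genes (80.0%) and at 14 of the regulator genes (77.8%). The shares were close, but the median signal value was 6.86 for the factors and 3.99 for the regulators, which was below the median of all genes.

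**Figure D1:**
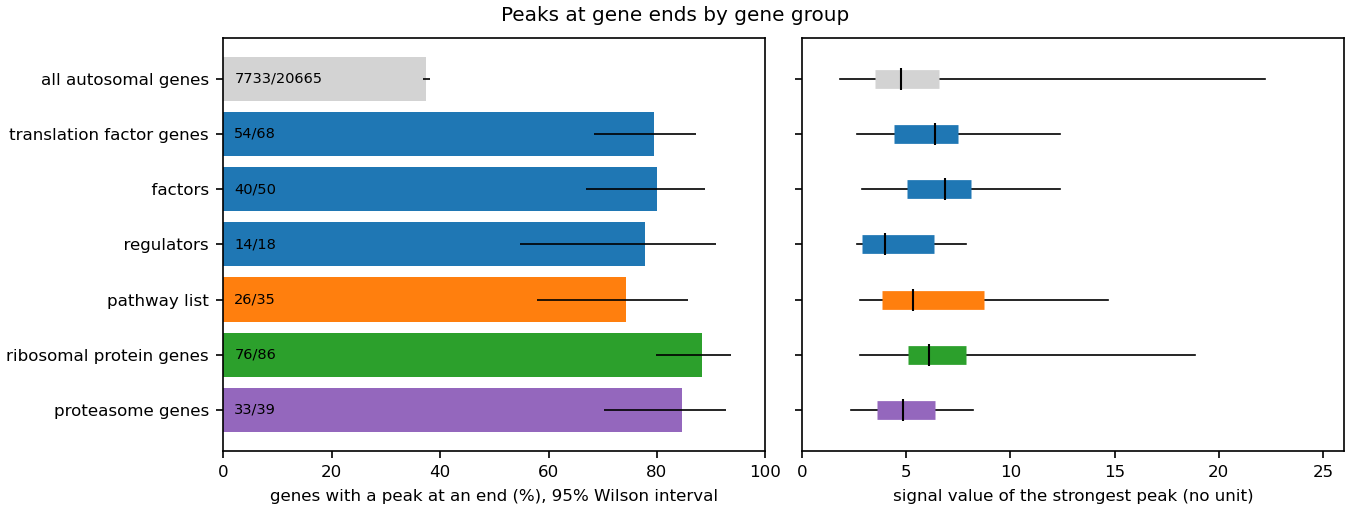
Peaks at gene ends in gene groups. Left, genes with a peak at an end (%), with 95% Wilson intervals and counts in the bars; right, signal value of the strongest peak per gene (thin line, range; thick bar, interquartile range; tick, median). The translation factor genes stand at 79.4% against 37.4% of all autosomal genes, and their regulators have a lower median signal value (3.99) than the factors (6.86).

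All 9 genes of the initiation complex and start codon selection had a peak. Eif1, whose product guards against initiation at wrong codons, had the highest signal value of this group, 10.81, in a peak at chr11:100319908-100321373 with −log10 q of 39.63. Its close relative Eif1b reached 6.14, and Eif1a, whose product works with eIF1 on the scanning ribosome, 6.82. Eif5, the activator of the GTPase of eIF2, had 8.60 and Eif5b, the GTPase that joins the ribosomal subunits, 5.35. The 2 autosomal subunits of eIF2 differed. Eif2s2, for the beta subunit, had 7.10. Eif2s1, for the alpha subunit whose phosphorylation slows initiation, had 4.56, the lowest of the group. At Eif5b and Eif2s1 the strongest peak lay wholly upstream of the start and also reached a neighbour, Txndc9 and Atp6v1d. The peaks over their starts had 4.04 and 3.88, and these also reached the same neighbours. Eif2a and Eif2d, which encode other proteins that can bring initiator tRNA to the ribosome, had 7.38 and 4.86.

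The exchange factor eIF2B, which reloads eIF2 with GTP, has 5 subunits. Peaks lay at Eif2b4 (7.68), Eif2b1 (5.97) and Eif2b2 (5.94). Those of Eif2b4 and Eif2b1 also reached the window of a neighbouring gene. Eif2b3 and Eif2b5 had none at either end, so the genes of 1 complex were split in this list. The nearest peak to Eif2b5 was 7.97 kb from its ends and that to Eif2b3 was 33.2 kb away. The 4 kinases that phosphorylate eIF2 all had a peak. Eif2ak4, the amino acid sensor known as GCN2, had 7.50 and Eif2ak3, the endoplasmic reticulum stress kinase PERK, had 6.15. Eif2ak2, the double-stranded RNA sensor PKR, had 2.78 and Eif2ak1, the haem-regulated kinase, 2.75, both with −log10 q of 1.67, which is past a q-value of 0.05.

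Of the 14 genes of the eIF3 complex, 11 had a peak, with signal values from 2.87 to 9.61. The highest were at Eif3d (9.61), whose product can bind the cap, Eif3a (9.28), the largest scaffold subunit, and Eif3h (7.96). Eif3b (7.38), Eif3m (7.07), Eif3k (7.01) and Eif3e (6.40) followed. Eif3j1 had 4.93. Eif3g (3.24), Eif3i (3.09) and Eif3f (2.87) lay below the median of all genes with a peak. Eif3c and Eif3l had no peak at an end, and their nearest peaks were 16.8 kb and 14.0 kb away. Eif3j2, a second copy of Eif3j1, had its nearest peak 933 kb away. The eIF3 genes thus spanned most of the range of the members, although their products sit in 1 complex.

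The eIF4 genes held the highest value of all members. Eif4a3, which encodes the DEAD-box helicase of the exon junction complex, had a signal value of 12.37 in a peak at chr11:119298312-119300385, with −log10 q of 49.60 and rank 162 of 22948 peaks by signal value. The cap-complex helicases Eif4a1 and Eif4a2 had 10.75 and 9.59, and the peak of Eif4a1 also reached the window of Senp3. Eif4a3l1, a further copy of Eif4a3, had none, and its nearest peak lay 119581 bp from its ends.

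The other eIF4 families were as uneven. Among the scaffold genes, Eif4g2, whose product lacks the part that binds eIF4E, had 10.44, Eif4g3 5.05 and Eif4g1, the main scaffold, 4.19. Among the cap-binding proteins, Eif4e2 had 7.35 and Eif4e, the rate-limiting cap-binding protein, 6.76. Eif4e1b, the form found in oocytes, had none, and its nearest peak lay 89.0 kb away. Eif4e3 had none at its ends, but 6 peaks lay inside the gene, the nearest to an end at 2.74 kb. The helicase cofactors Eif4h and Eif4b had 6.27 and 3.79. Of the proteins that hold eIF4E back, Eif4ebp2 had 7.87 and Eif4ebp1 4.37. Eif4ebp3 and Eif4enif1, whose product carries eIF4E into the nucleus, had no peak at an end. A peak with a signal value of 8.23 lay 2.82 kb from Eif4ebp3.

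Of the 7 genes named for subunits of eEF1 or eEF2, 6 had a peak. Eef1a1 had 9.70, in a peak at chr9:78480084-78481630, while Eef1a2, the form of muscle and neurons, had none, and its nearest peak lay 30.3 kb away. The subunits of the exchange factor of eEF1A were spread: Eef1g had 8.82, Eef1b2 4.50 and Eef1d 4.01. Eef2 had 6.89. Eef1e1, which encodes a part of the aminoacyl-tRNA synthetase complex, had 3.18. The hypusine-carrying factor Eif5a had 6.55 and its relative Eif5a2 had none, with the nearest peak 6.63 kb away. Eif6, which keeps the ribosomal subunits apart, had a peak of 6.98 at its low-coordinate end only, and that peak also reached the windows of Mmp24 and BC029722. The peak cannot be assigned to 1 of these genes.

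Enzymes that act on elongation factors had lower values. Eef2k, the kinase that inhibits eEF2, had 6.40 and the eEF1A methyltransferase gene Eef1akmt2 had 6.58. Eef2kmt had 4.53, Eef1akmt1 3.61 and Eef1aknmt 3.18. Eef1akmt4 and the read-through gene Eef1akmt4-ece2 start at the same base and shared 1 peak of 267 bp with a signal value of 2.66. It was the lowest of all members and, with −log10 q of 1.22, the only strongest peak of a member with a q-value above 0.05. Eef1akmt3 had no peak at its ends, and the nearest lay 2.17 kb away with a signal value of 2.63. Eif1ad, named for a domain of eIF1A, had none, with the nearest peak 16.2 kb away.

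**Figure D2:**
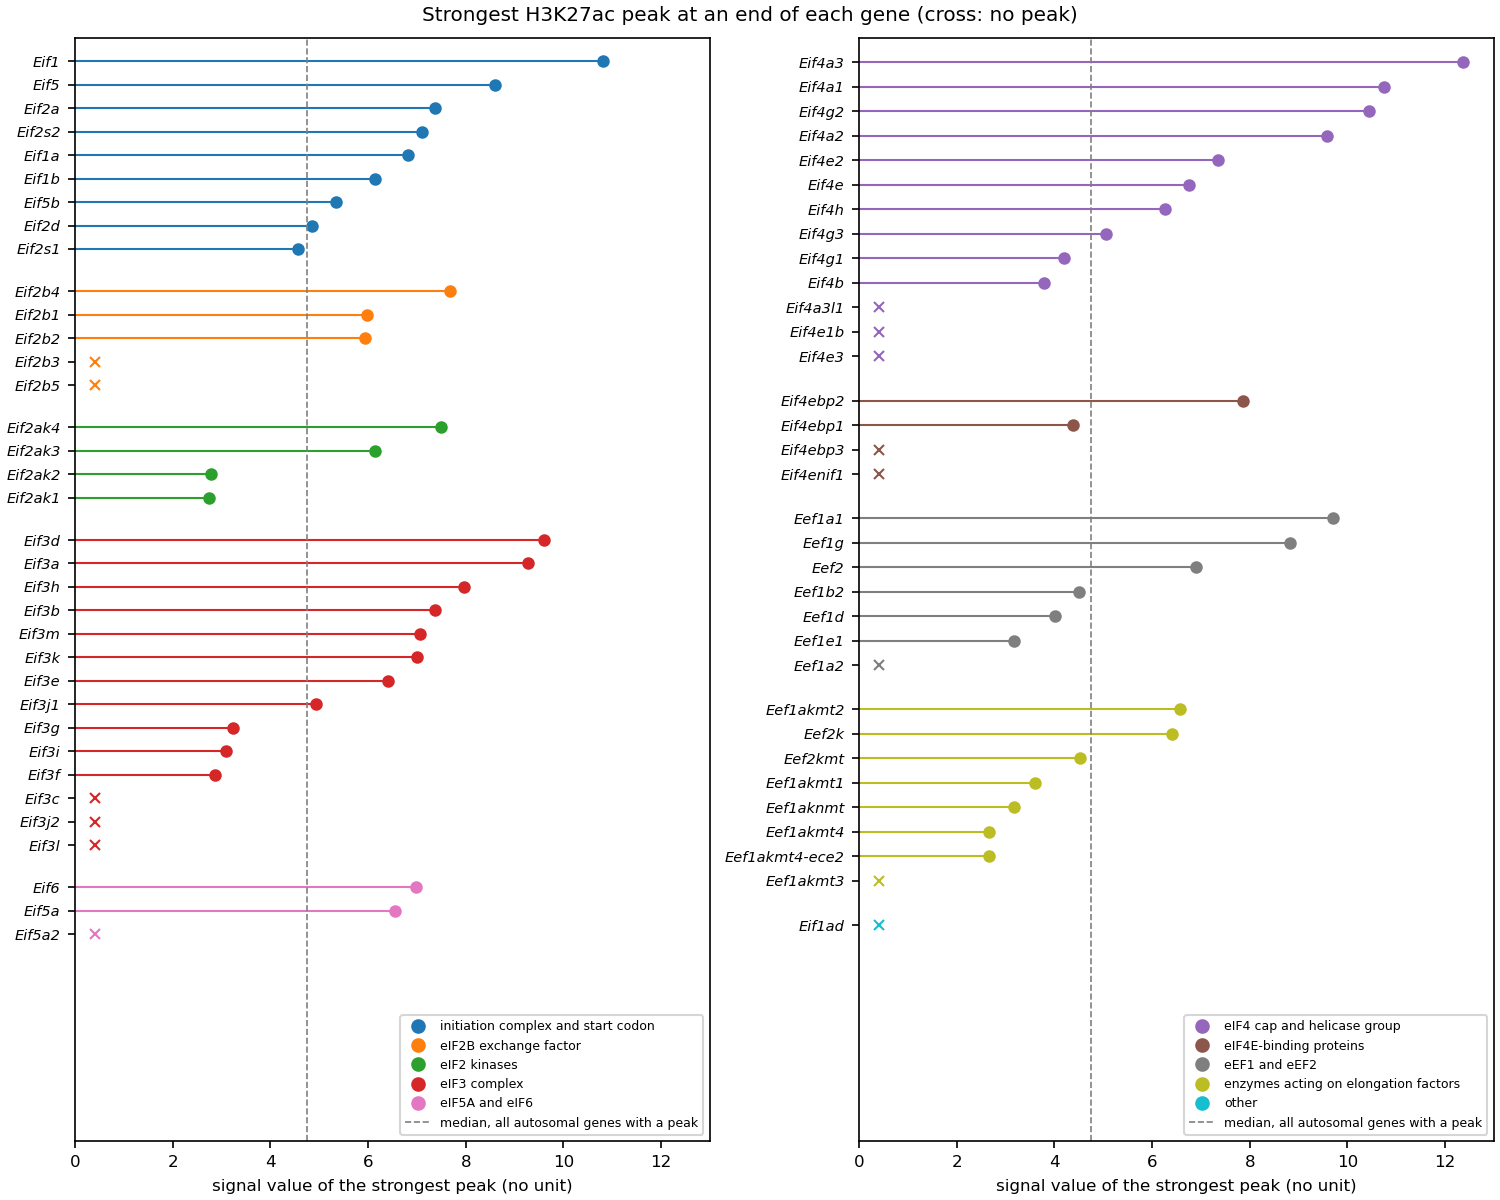
Signal value of the strongest H3K27ac peak at an end of each of the 68 genes (x axis, no unit), by role; a cross marks a gene with no peak. The dashed line is the median of all autosomal genes with a peak (4.74); Eif4a3 is highest at 12.37, and every role except the initiation complex and the eIF2 kinases holds at least 1 gene with no peak.

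Some families of related genes were thus split between a gene with a peak and a gene with none. This was so for Eef1a1 (9.70) and Eef1a2, Eif5a (6.55) and Eif5a2, Eif3j1 (4.93) and Eif3j2, and Eif4a3 (12.37) and Eif4a3l1. In the Eif4e family, Eif4e (6.76) and Eif4e2 (7.35) had a peak and Eif4e1b and Eif4e3 had none. Eif4ebp1 (4.37) and Eif4ebp2 (7.87) had a peak and Eif4ebp3 had none. It was not so for Eif1 and Eif1b, Eif4a1 and Eif4a2, Eif4g1, Eif4g2 and Eif4g3, or the kinases Eif2ak1 to Eif2ak4, which all had peaks. Related genes share sequence, so reads can map to more than 1 of them, and whether this bears on a missing peak was not tested.

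In all, 70 peaks lay at the ends of the 54 genes. A single peak was found at 37 genes and 2 peaks at 17 (31.5%), against 24.2% of all genes with a peak that had more than 1. In 15 of the 17, both peaks reached the window of the same end of the gene. Eef1a1, Eif1b, Eif2b4 and Eif3j1 each had a peak that ended before the annotated start and another that began after it. At Eef1a1 the peak inside the gene had a signal value of 9.70 and the upstream peak 3.30. At Eif1b they were 6.14 and 3.12. At Eif2b4 and Eif3j1 the order was the opposite, with 7.68 upstream and 4.37 inside at Eif2b4, and 4.93 upstream and 3.79 inside at Eif3j1. Eef2 and Eif4g1 had peaks at different ends, and the one at the far end also reached the window of a neighbour, Dapk3 for Eef2 and Fam131a for Eif4g1.

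An annotated start with its strand was found for 52 of the 68 genes, and 44 of these had a peak within 1 kb of the most upstream start listed in the promoter table. That start was the gene's own end at 39 of the 52 and lay more than 100 bp inside the gene at 6 (11.5%; 23.0% of all): Eif4g3 (1676 bp), Eef1akmt2 (652 bp), Eif5a2 (245 bp), Eef1aknmt (196 bp), Eef2k (189 bp) and Eif4ebp2 (121 bp). At Eif4g3, 2 peaks reached the window of this start and 1 that of the gene's ends. The start lay inside a peak at 24 of the 44 genes (54.5%; 49.5% of the 6271 autosomal genes with such a peak). Peaks lay on both sides of the start without covering it at 4 (9.09%; 14.2% of all), only on the gene side at 14 (31.8%; 29.0%) and only upstream at 2 (4.55%; 7.37%). The summit of the strongest peak was inside the gene at 31 (70.5%; 70.9%), and its median position was 315.5 bp after the start (294 bp for all). The placement of the peaks around the start was thus close to that of genes in general. Summits at Eif4a3, Eif1, Eif4a1 and Eif3a lay 314, 316, 330 and 320 bp after the start.

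**Figure D3:**
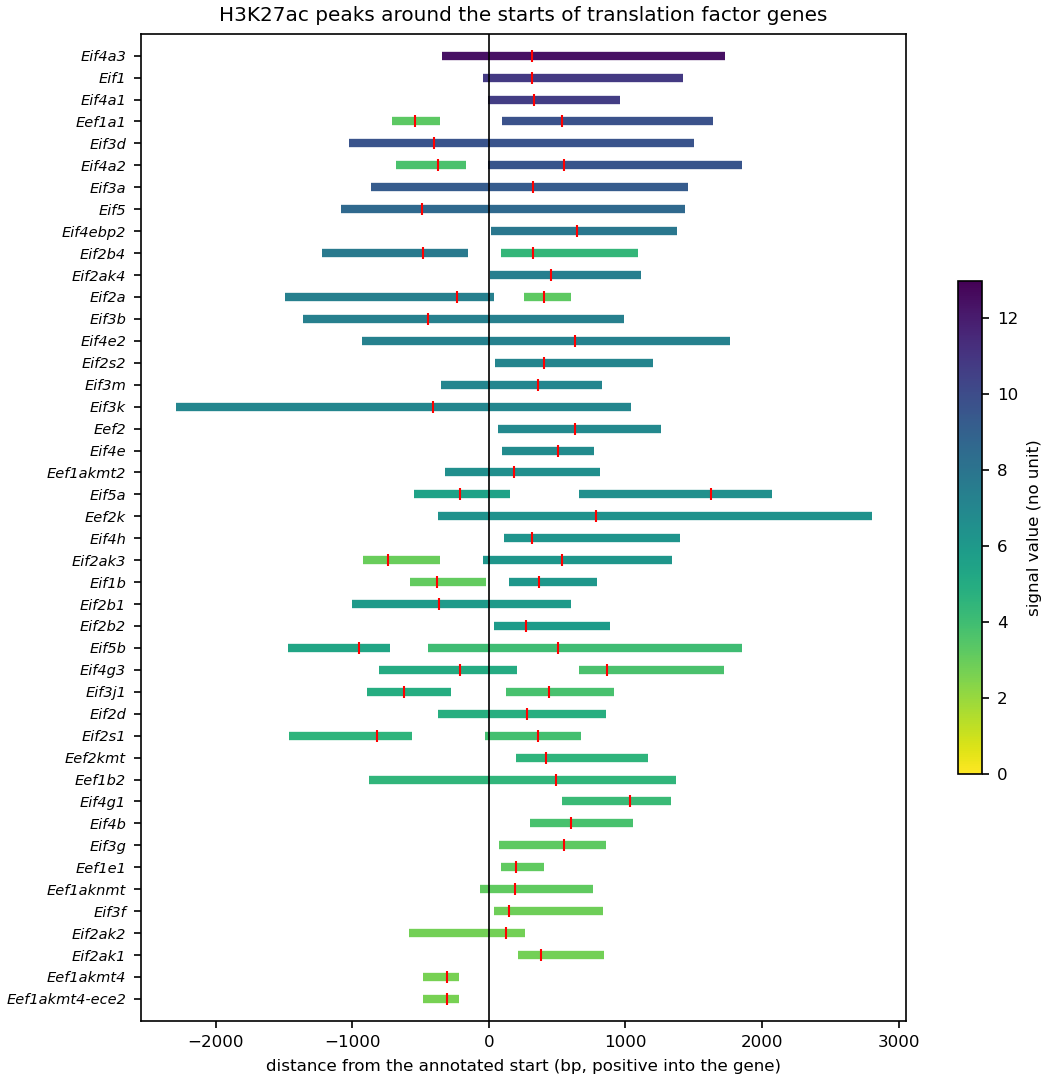
H3K27ac peaks (bars, coloured by signal value) and their summits (red ticks) around the annotated start of the 44 genes with a start in the promoter table and a peak within 1 kb of it; the x axis is the distance from the start in bp, positive into the gene. Genes are ordered by their strongest signal value; 31 of the 44 have their strongest summit inside the gene, and Eef1a1, Eif1b, Eif2b4 and Eif3j1 show a gap over the start.

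The widest strongest peaks were at Eif3k (3336 bp), Eef2k (3177 bp), Eif4e2 (2695 bp), Eif3d (2526 bp) and Eif5 (2518 bp). None of these was among the 5 highest signal values, which belonged to Eif4a3, Eif1, Eif4a1, Eif4g2 and Eef1a1. The peak of Eif4a1, the third by signal value, was 961 bp wide.

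The strongest peak also reached the end window of another protein-coding gene at 16 of the 54 genes (29.6%), against 31.8% of all genes with a peak. The neighbours were Txndc9 for Eif5b, Serp1 for Eif2a, Atp6v1d for Eif2s1, Tmed7 for Eif1a, Snx17 for Eif2b4, Gtf2h3 for Eif2b1, Tmem234 for Eif3i, Map4k1 for Eif3k, Senp3 for Eif4a1, Ndufs1 for Eef1b2, Tigd5 for Eef1d, Tut1 for Eef1g, Gm26637 for Eif2ak2, and Alg3 for the Eef1akmt4 pair, beside Eif6. Leaving out genes with such a shared peak can only lower a share, since each has a peak. After it, 38 of 52 translation factor genes (73.1%) and 29.0% of all genes had one, with median signal values of 6.47 and 4.59.

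CG dinucleotides were counted in the RefSeq promoter sequences, which run from 250 bases before to 50 from the most upstream start listed in the promoter table for each gene. The 52 translation factor genes with an entry had a median of 23 CG in the 300 bases, against 14 over 16457 autosomal protein-coding genes. The 44 with a peak ranged from 11 to 50 with a median of 23, and the 8 without a peak from 3 to 34 with a median of 18.5. Peaks were in general more frequent at starts rich in CG: 12.7% of all genes with fewer than 10 CG had a peak at an end, against 56.7% of those with 10 or more. Among the 49 translation factor genes with 10 or more, 44 had a peak (89.8%). Each class of CG count from 10 upwards showed a higher share for these genes than for all genes, on 4 to 14 genes per class. The 3 genes with fewer than 10, Eef1a2 (8), Eif2b5 (9) and Eif4a3l1 (3), had no peak. Starts rich in CG without a peak were those of Eif5a2 (34), Eif1ad (32), Eif4enif1 (27), Eif3l (20) and Eif3c (17).

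**Figure D4:**
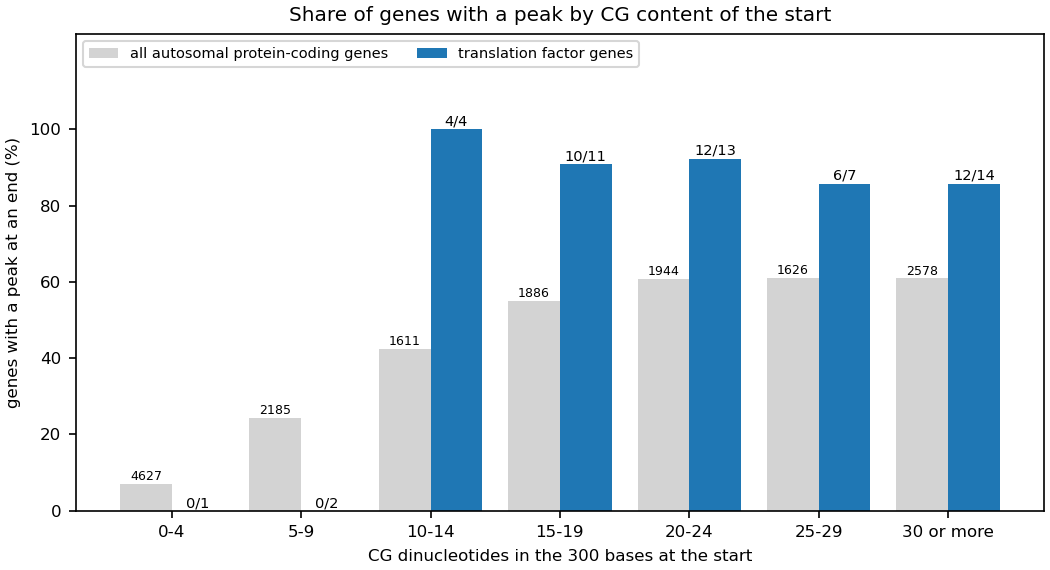
Genes with a peak at an end (y axis, %) by the number of CG dinucleotides in the 300 bases at the start (x axis), for all autosomal protein-coding genes (grey, number of genes above) and translation factor genes (blue, genes with a peak of all genes above). From 10 CG upwards 44 of 49 translation factor genes have a peak, against 56.7% of all genes.

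Short motifs were searched for on both strands of the same 300 bases, as a description of the sequence and not of binding. The E-box CACGTG, the sequence that Myc and related factors recognise, was in 13 of the 52 starts (25.0%), against 7.97% of all starts and 10.5% of the starts of genes with a peak. The 13 include Eef2, Eif3a, Eif4g1 and Eif4h, and also Eif5a2, which had no peak. The shared start of Eef1akmt4 and Eef1akmt4-ece2 is counted for each of them. The ETS motif CCGGAAG was in 14 starts (26.9%; 12.3% of all and 21.9% of those with a peak), among them Eif2b4, Eif3d and Eif3m, and Eif3c, Eif3l, Eif1ad and Eif5a2, which had no peak. The NRF1 motif GCGCATG was in 7 (13.5%; 4.93% and 8.30%), which include Eef1a1 and Eef2. The GC box GGGCGG was in 37 (71.2%; 47.3% and 66.4%).

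The other motifs were counted in the same way. CCAAT was in 18 (34.6%; 39.1% of all and 39.3% of those with a peak), TATAAA in 4 (7.69%; 13.5% and 6.94%), the YY1 motif AAGATGGCG in 1, at Eef1e1 (1.92%; 1.92% and 3.87%), and the interferon response letters GAAANNGAA in 5 (9.62%; 8.17% and 7.55%), one of which is Eif2ak2, an interferon-induced gene. The ATF4-C/EBP letters TGATGCAA were in 0 of 52 (0.784% of all and 0.632% of those with a peak). Messages of many translation factors begin with a C followed by a run of C and T, the terminal oligopyrimidine feature through which mTOR controls their translation. From the most upstream start listed, a C with at least 5 C or T letters in a row was found in 1 of 52 (1.92%, against 2.17% of all), at Eif3f with a run of 11. Eef1a1 had a run of 5 from its annotated start, but the first base is a T. Annotated starts can be off by some bases, so the count of 1 says nothing of the true starts.

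Distal peaks, whose summits lay more than 1 kb from every protein-coding gene end, were counted within 50 kb of the ends of each gene. At least 1 was found for 34 of the 68 genes, against 45.9% of all autosomal genes. Eef1akmt2 had 12, Eif4g3 8, Eif3b and Eef2k 7 each, and Eef2 and Eif4e3 6 each. With −log10 q of at least 5, 20 genes (29.4%) had one, against 24.0% of all. Of the 5 genes with the highest values at their own ends, Eif4a3 had 1 such peak, Eif1 0, Eif4a1 0, Eif4g2 1 and Eef1a1 3, beside a median of 0.5 over the 68 genes. Such peaks cannot be assigned to a gene by distance alone.

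Other genes of the pathway were counted from a list of 35 autosomal genes outside the naming rule. A peak was found at 26 (74.3%, 95% Wilson interval 57.9% to 85.8%), against 37.4% of all autosomal genes. The median signal value was 5.31, against 4.74 for all autosomal genes with a peak. The termination factor Etf1 had 14.70, above every translation factor gene. At 10 of the 26 (38.5%) the strongest peak also reached another gene, among them Atf4, Ddit3, Ppp1r15a, Mtor, Tsc2, Rps6kb1 and Rps6kb2, so those values cannot be assigned to 1 gene. Atf4, the transcription factor made when eIF2 is phosphorylated, had 12.61. Ppp1r15a and Ppp1r15b, whose products bring a phosphatase to eIF2, had 8.75 and 8.45, and Ddit3, the stress factor CHOP, 8.72. Paip2, an inhibitor of the poly(A)-binding protein, had 12.28, while Pabpc1, the main poly(A)-binding protein, had 5.14.

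In the mTOR branch, which controls the eIF4E-binding proteins, Rheb had 11.54 and Mtor 5.88. The inhibitors Tsc1 and Tsc2 had 3.58 and 2.91, the kinases Rps6kb1 and Rps6kb2 3.00 and 3.26, and Rptor none. The enzymes that make hypusine on eIF5A, Dhps and Dohh, had 6.12 and 5.02. Dph1 and Dph2, which start the synthesis of the diphthamide residue of eEF2, had no peak at an end. Larp1, Mif4gd, Mknk1, Pabpc4, Pdcd4 and Pelo had none either. A missing peak says only that none passed the authors' calling in this list and does not show that H3K27ac was absent.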

How the data were processed

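H3K27ac ChIPmentation libraries (4) and an input library (1) of 1 genotype were represented by 1 deposited peak list, with no header. BWA, MACS2 and the build mm10 are named in the submitters' processing notes, without versions or settings; how the libraries were combined is not given in the sources used here. Per the file name, the list is an overlap set over input. The deposited columns hold a score, the signal value, the −log10 p and −log10 q of each peak, and its summit offset. These are the authors' values and served to describe, rank and filter peaks within the list. The lowest deposited −log10 p was 2.01.

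Gene ends came from the RefSeq table of GRCm38.p6 (mm10 is the same build), and starts, strands and sequences from the matching promoter table, which had entries for 52 members. Members, gene lists and motifs were chosen with earlier results of these data known. The members without an entry were Eef1akmt1, Eef1akmt3, Eef1d, Eef1g, Eif1a, Eif2b3, Eif3e, Eif3h, Eif3i, Eif3j2, Eif4e1b, Eif4e3, Eif4ebp1, Eif4ebp3, Eif4g2 and Eif6. Genes named were all members without a peak, the 5 highest, 5 lowest and 5 widest, those with several, shared or many distal peaks, paralogues and pathway genes without a peak; the other members and pathway genes were added after their values were seen. Protein identities that had been planned were not computed. The check of genes of lineages that the sort should remove is not reported here. The peak with the highest signal value represented each gene. Python 3.11.15, pandas 2.3.3 and SciPy 1.17.1 were used, and the matching step was tested on simulated data.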

Additional observations from a re-analysis of the deposited data

How the results depend on the processing

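Windows of 500 bp and 2.5 kb, stricter lists, summits in place of overlap, annotated starts only, factors only, and leaving out shared peaks were tried; leaving out the read-through gene was added after the data were seen. The share of translation factor genes with a peak ranged from 63.2% to 84.6%. It moved below its interval in 2 stricter lists: to 63.2% with −log10 q of at least 5 (all autosomal genes 25.0%, pathway list 54.3%) and to 63.2% when signal values had to reach 4 (24.1% and 54.3%). The share of all autosomal genes was 35.0% with 500 bp, 40.6% with 2.5 kb, 35.6% with a q-value of at most 0.05, 34.4% by summit and 39.3% for annotated starts. In place of 34, 48 members (70.6%; 61.3% of all autosomal genes) had a distal peak within 100 kb, and 20 (29.4%; 24.0%) when −log10 q had to reach 5. The median signal value ranged from 6.33 to 6.89 and the median width from 1110 to 1325.5 bp, all within their intervals; the largest width came from joining peaks, which gave 1470 bp for all genes. With −log10 q of at least 5, Eif2ak1, Eif2ak2, Eif3f, Eif3g, Eif3i, Eif4b, Eef1e1, Eef1aknmt, Eef1akmt1 and both Eef1akmt4 genes lost their peak. The list holds no value of a single library, so leaving out libraries was not possible. No paired analysis was possible because replicates have no columns of their own. Depth was not given, so its effect on the weakest peaks was not measured.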

Other observations

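The naming rule leaves out 3 genes on the sex chromosomes. Eif2s3x, which encodes the gamma subunit of eIF2, had a peak with a signal value of 3.61 and a width of 754 bp, and Eif1ax, for a form of eIF1A, had one of 3.24 and 443 bp. Eif2s3y, the copy on the Y chromosome, had no peak at its ends. Of 966 protein-coding genes on the X chromosome, 195 (20.2%) had a peak at an end, against 37.4% of autosomal ones. With these genes, eIF2 had values of 4.56 for the alpha, 7.10 for the beta and 3.61 for the gamma subunit. The alpha value is from a peak that also reached Atp6v1d, and the gamma value is from a gene on the X chromosome.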
